A study of Mus musculus with 8 samples.

Results

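Mitochondrial ribosomal proteins are the protein components of the ribosome inside mitochondria. The genes described here are those whose symbol starts with Mrpl or Mrps followed by a digit, found through the RefSeq accession of each array probe, with pseudogenes left out. That gave 78 genes of the 20660 that the array names, 49 of the large subunit (Mrpl) and 29 of the small subunit (Mrps) by symbol, with 100 probes in all. Gastrocnemius and tibialis anterior (TA) muscle came from male C57BL6 mice of 8 to 16 weeks that were either Eif6+/-, with 1 working copy of the gene for eukaryotic initiation factor 6 in every cell, or wild-type (WT) littermates. Each of 8 arrays held RNA of 1 Eif6+/- mouse (Cy5) and of 1 WT mouse (Cy3), paired at random, with 4 pairs for each muscle. The value of a gene on an array is the log2 ratio of Eif6+/- over WT, so that 0 means equal signal. The dyes were never swapped, so a dye effect of a probe and an effect of the genotype cannot be told apart within a muscle. All arrays lay on 1 slide, gastrocnemius in 1 row and TA in another, so row and muscle cannot be told apart.

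The mitochondrial ribosome is built from RNA encoded in mitochondrial DNA and from proteins encoded in the nucleus, made on cytosolic ribosomes and imported. Its small subunit binds the messenger RNA and holds the decoding centre, and its large subunit holds the peptidyl transferase centre and the exit tunnel. It makes only the few proteins that mitochondrial DNA encodes, all of them parts of the respiratory chain and ATP synthase, which muscle needs in quantity. Symbols do not follow the structure throughout: the products of Mrps18a and Mrps30 lie in the large subunit, and that of Mrps36 is now counted with the 2-oxoglutarate dehydrogenase complex.

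Of the 78 genes, 77 were tested in each muscle, all of them well above background in both channels on all 8 arrays. The remaining gene, Mrpl21, was well above background on 0 of the 8 arrays in either channel and has no value. The median log2 signal of the tested members was 11.62, against 8.52 over all genes tested in gastrocnemius and 8.57 in TA, so the members are bright on this array. The muscle markers Ckm, Acta1, Des, Mb, Tnnt3, Myh4 and Pygm were all tested, and all except Des (percentile 96.7 in gastrocnemius) had signals at percentile 99.5 or above. Eif6 itself gave log2 ratios of -0.97, -1.15, -0.89 and -1.06 on gastrocnemius pairs 1 to 4 and of -1.22, -1.03, -0.95 and -0.80 on TA pairs 1 to 4. Every Eif6+/- mouse was below its WT partner (limma, adjusted p = 0.0238 in gastrocnemius and 0.0107 in TA), although in gastrocnemius leaving out pair 3 gave 0.12 and leaving out pair 4 gave 0.155.

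A gene was called when the Benjamini-Hochberg adjusted p of limma, taken over all kept probes of the muscle, was under 0.1. In gastrocnemius 18 of the 77 members were called higher in Eif6+/- muscle, 23.4%, beside 9.9% of all genes tested. Of these 18, 13 belonged to the large subunit and 5 to the small subunit. Only 1 member, Mrps15, was called lower, beside 5.56% of all genes. The median log2 ratio of the members was 0.17, against 0.020 over all 12601 genes, and 65 members (84.4%) lay above 0, against 53.9% of all genes. On the 4 gastrocnemius arrays the median of the members was 0.17, 0.066, 0.26 and 0.10 for pairs 1 to 4. It was above the median of all genes on every array, lowest on pair 2 and highest on pair 3. The ratio was above 0 in all 4 pairs for 33 members and below 0 in all 4 for 3, where 21.4% and 14% of all genes were so placed. These are bulk samples, in which fewer cells of a type and less RNA per cell cannot be told apart. The 18 became 8 with normexp offset 0, beside 933 of all 12601 genes, and 9 with Agilent's processed signals, beside 911. The members' share called higher was then still above that of all genes, but by less than 23.4% is above 9.9%. The calls rest on all 4 pairs: without pair 1 there were 11 higher and 1 lower, beside 1055 and 727 of all 12601 genes. Without pair 2 there were 9 higher and 0 lower, beside 806 and 559 of all genes. At an unadjusted p under 0.05, 2 were lower without pair 2, beside 1448 of all genes. Without pair 3 or pair 4 limma called 0 members, as it called 0 of all genes. At an unadjusted p under 0.05, 17 and 28 members were then higher, beside 1514 and 1560 of all genes. On the same terms 3 and 1 members were lower, beside 914 and 1096 of all genes.

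**Figure D1:**
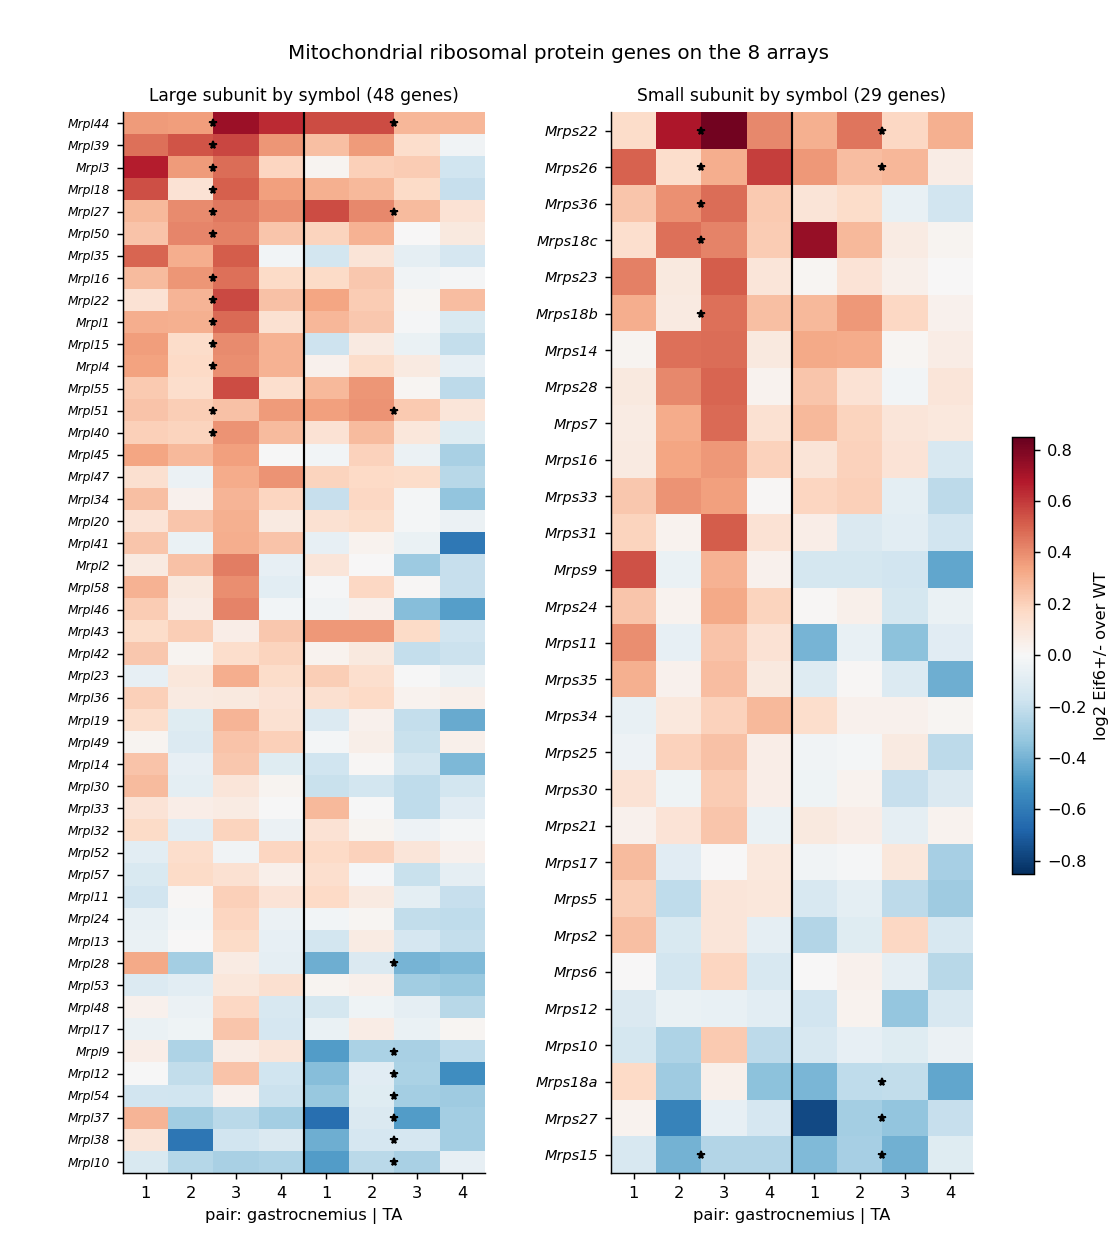
Log2 ratio of Eif6+/- over WT for each of the 77 tested genes (vertical) on each of the 8 arrays (horizontal, gastrocnemius pairs 1 to 4 left of the line and TA pairs 1 to 4 right of it), ordered by the gastrocnemius mean; a star marks a gene called in that muscle. The gastrocnemius columns are mostly red, with pair 3 the deepest, and TA pair 4 is mostly blue.

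Among members of the large subunit, Mrpl39 had the smallest adjusted p in gastrocnemius. It encodes a protein that bacterial ribosomes lack, and its log2 ratios were 0.47, 0.53, 0.57 and 0.38 in pairs 1 to 4. All 4 Eif6+/- mice were above their WT partners, with little spread between pairs. The mean was 0.49 ± 0.085 (SD, n = 4; limma, adjusted p = 0.0296), and the other probe of Mrpl39 pointed the same way at 0.16 without being called. Mrpl44 encodes a large-subunit protein with a fold like that of ribonuclease III. Its ratios were 0.36, 0.36, 0.73 and 0.63. Pairs 3 and 4 were higher than pairs 1 and 2, and none was near 0. The mean of 0.52 ± 0.19 (SD, n = 4; limma, adjusted p = 0.035) was the largest of any member in gastrocnemius. Mrpl27, the counterpart of a bacterial protein that reaches into the peptidyl transferase centre, gave 0.28, 0.40, 0.45 and 0.39. The 4 pairs lay close together, at a mean of 0.38 ± 0.072 (SD, n = 4; limma, adjusted p = 0.0391). Its other probe stood at 0.0070 in gastrocnemius, so the change was seen by 1 of its 2 probes. Mrpl3, which encodes a core protein near the same centre, gave 0.67, 0.36, 0.48 and 0.18. All pairs were above 0, with pair 1 highest and pair 4 lowest, and the mean was 0.42 ± 0.20 (SD, n = 4; limma, adjusted p = 0.0509). None of these 4 genes was called without pair 3 or without pair 4, where their adjusted p lay between 0.125 and 0.178.

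The other 9 large-subunit members called higher were Mrpl50, Mrpl18, Mrpl4, Mrpl16, Mrpl15, Mrpl51, Mrpl1, Mrpl40 and Mrpl22, all above 0 in every pair. Their means ran from 0.26 for Mrpl40 to 0.38 for Mrpl18, which is 1.2-fold to 1.3-fold. Mrpl51, the brightest of them, varied least between pairs (0.24, 0.21, 0.25 and 0.36). Mrpl4 and Mrpl22 encode proteins that line the exit tunnel in bacterial ribosomes, and Mrpl1 one of the mobile stalk that handles the outgoing transfer RNA. Mrpl15, Mrpl22 and Mrpl4 each have another probe whose ratio lay below 0 in gastrocnemius (-0.028, -0.030 and -0.20), so their direction differs between probes. Without pair 3 or pair 4 the calls of all 9 were lost.

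Of the 5 small-subunit members called higher in gastrocnemius, Mrps22 had the largest mean. It encodes a protein particular to the mitochondrial small subunit. Its ratios were 0.15, 0.69, 0.82 and 0.41 in pairs 1 to 4. All pairs lay above 0 but they spread widely, with pair 3 the highest single value of any member and pair 1 the lowest of the 4. The mean was 0.52 ± 0.30 (SD, n = 4; limma, adjusted p = 0.0518), and the call was lost without pair 2 (adjusted p = 0.107), pair 3 or pair 4. Mrps26 gave 0.50, 0.15, 0.31 and 0.59. It was above 0 in every pair (mean 0.39 ± 0.20, limma, adjusted p = 0.0573), while its other probe gave -0.036. Mrps36, counted with the small subunit by symbol only, gave 0.23, 0.39, 0.48 and 0.22, and its other probe was called higher as well (0.26, adjusted p = 0.0748). Mrps18b and Mrps18c, 2 of the 3 paralogs of a bacterial small-subunit protein, were called higher at 0.28 ± 0.16 and 0.31 ± 0.16. The remaining paralog, Mrps18a, whose product lies in the large subunit, was not called in gastrocnemius (-0.11 ± 0.26, from -0.35 to 0.17).

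Mrps12, Mrps2, Mrps5, Mrps7 and Mrps16, counterparts of bacterial small-subunit proteins, were not called in gastrocnemius. Mrps12, whose product lies at the decoding centre, lay just below 0 in every pair (-0.12, -0.058, -0.061 and -0.091). Its mean of -0.084 did not pass the threshold (limma, adjusted p = 0.474), and with Agilent's processed signals it was 0.015. Mrps2 and Mrps5 were close to 0 with pairs on both sides of it, at 0.037 and 0.049. Mrps7 and Mrps16 were above 0 in all 4 pairs (0.25 ± 0.19 and 0.24 ± 0.14) but not past the threshold (limma, adjusted p = 0.138 and 0.113). Mrps34 and Mrps35, both of the mitochondrial small subunit alone, had means of 0.13 and 0.17. Mrps30 had 0.088. Of large-subunit genes with a role of their own, Mrpl58, whose product releases peptides from stalled ribosomes, had 0.17, Mrpl41 had 0.18 and Mrpl24 had 0.012, and none was called. The 1 member called lower, Mrps15, encodes the counterpart of a bacterial small-subunit protein that binds early in assembly. Its ratios were -0.14, -0.40, -0.25 and -0.25, below 0 in every pair, with a mean of -0.26 ± 0.11 (SD, n = 4; limma, adjusted p = 0.0881). That call was lost without pair 2, pair 3 or pair 4 (adjusted p from 0.195 to 0.246), and also with loess alone, Agilent's processed signals, the deposited values, normexp offset 0 and uncorrected background.

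The promoters of the members were searched for sequences found in many nuclear genes for mitochondrial proteins. A RefSeq table of GRCm38.p6 holds a promoter for 69 of the 78 members, 250 bases before to 50 bases after the start. Both strands of these 300 bases were searched for 3 motifs, the NRF1 core GCGCANGCG, the ETS core CCGGAAG, to which GABP binds, and the YY1 core AANATGGCG. Of the 69 members, 16 (23.2%) held the NRF1 core, against 9.63% of 17492 protein-coding genes. The ETS core was in 26 members (37.7%), against 12.9%, and the YY1 core in 11 (15.9%), against 3.64%. At least 1 of the 3 was found in 43 members (62.3%), against 22.7% of protein-coding genes and 17.2% of all 27025 genes in the table. By subunit, 28 of 43 large-subunit members (65.1%) and 15 of 26 small-subunit members (57.7%) held at least 1. Median GC content was 58.3% in the members and 56.3% in protein-coding genes, so the members' promoters are slightly richer in G and C. The 5 members with the smallest adjusted p in gastrocnemius are printed with the 250 bases before the start, read 5′ to 3′ toward the gene, with the motif in capitals. They were taken by adjusted p alone, and the next 2 members, Mrpl50 and Mrps36, hold none of the 3 motifs.
Mrpl39 (chr16:84735245-84735494, minus strand): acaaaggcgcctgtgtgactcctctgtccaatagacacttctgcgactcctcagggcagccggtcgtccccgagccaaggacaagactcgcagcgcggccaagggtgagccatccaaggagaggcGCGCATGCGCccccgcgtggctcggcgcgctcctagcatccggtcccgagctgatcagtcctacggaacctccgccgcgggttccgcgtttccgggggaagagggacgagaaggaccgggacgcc
Mrpl44 (chr1:79775768-79776017, plus strand): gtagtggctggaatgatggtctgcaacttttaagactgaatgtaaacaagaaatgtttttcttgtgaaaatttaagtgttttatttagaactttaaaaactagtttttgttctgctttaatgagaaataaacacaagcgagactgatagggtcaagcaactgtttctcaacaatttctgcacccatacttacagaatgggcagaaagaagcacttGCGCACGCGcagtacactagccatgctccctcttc
Mrpl27 (chr11:94653541-94653790, plus strand): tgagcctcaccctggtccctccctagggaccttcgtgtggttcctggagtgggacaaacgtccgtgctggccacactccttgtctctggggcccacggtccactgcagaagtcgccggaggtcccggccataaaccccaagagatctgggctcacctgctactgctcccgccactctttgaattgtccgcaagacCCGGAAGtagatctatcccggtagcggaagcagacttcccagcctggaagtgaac
Mrpl3 (chr9:105053018-105053267, plus strand): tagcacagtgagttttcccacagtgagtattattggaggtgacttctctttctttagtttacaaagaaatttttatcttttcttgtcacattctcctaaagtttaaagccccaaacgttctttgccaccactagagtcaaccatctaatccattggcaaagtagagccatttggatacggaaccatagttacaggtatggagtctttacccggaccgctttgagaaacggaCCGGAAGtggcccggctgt
Mrps22 (chr9:98601680-98601929, minus strand): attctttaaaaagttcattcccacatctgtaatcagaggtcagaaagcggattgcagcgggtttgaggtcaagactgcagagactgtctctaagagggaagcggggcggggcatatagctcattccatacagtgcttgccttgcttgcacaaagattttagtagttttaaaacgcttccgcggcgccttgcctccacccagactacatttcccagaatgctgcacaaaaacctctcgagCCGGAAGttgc
In Mrpl39 the capitals mark 2 overlapping NRF1 matches on opposite strands, from 125 to 116 bases before the start. In Mrpl44 they mark 1 NRF1 match, from 35 to 27 bases before it. Mrpl27, Mrpl3 and Mrps22 each hold 1 ETS match, beginning 55, 19 and 11 bases before the start. Mrpl27 also holds a YY1 match after the start, outside the printed bases. A match is a string of letters, and binding was not measured. Among the 16 members called higher in gastrocnemius that have a promoter entry, 11 (68.8%) held at least 1 motif, and among the 8 called lower in TA, 6 (75%) did.

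In TA, 5 members were called higher, 6.49% of 77, beside 8.99% of all 12371 genes tested, and 10 were called lower, 13%, beside 7.28% of all genes. The share called higher is thus below that of all genes and the share called lower above it. The median log2 ratio of the members was -0.033, against 0.019 over all genes, and 33 members (42.9%) lay above 0, against 54% of all genes. With Agilent's processed signals the members' median was 0.015 and that of all genes 0.090, so the median changes sign there but stays below that of all genes. By array the median was 0.020, 0.061, -0.059 and -0.15 for TA pairs 1 to 4, highest on pair 2 and lowest on pair 4. Without pair 4 it was 0.011, against 0.026 for all genes. In 15 members (19.5%) the ratio was above 0 in all 4 pairs, as in 19.7% of all genes, and in 16 (20.8%) it was below 0 in all 4, against 15.6% of all genes. The counts again depended on single pairs. Without pair 1 limma called 0 members, beside 53 higher and 15 lower of all genes. At an unadjusted p under 0.05, 4 members were then higher and 10 lower, beside 1231 and 975 of all 12371 genes. Without pair 2 there were 0 higher and 3 lower (338 and 195 of all genes). At an unadjusted p under 0.05 there were 5 and 17, beside 1555 and 1267 of all genes. Without pair 3 there were 3 higher and 3 lower, beside 737 and 451 of all 12371 genes. The members' share called lower was then close to that of all genes. Without pair 4 there were 7 of each, beside 1089 and 925 of all genes. The members' share called higher was then no longer below that of all genes. Agilent's processed signals gave 0 called in TA by limma, beside 609 higher and 162 lower of all genes. At an unadjusted p under 0.05, 6 members were higher and 5 lower with these signals, beside 2214 and 849 of all 12371 genes. The members' share higher was then below that of all genes, and their share lower was close to it.

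The 5 members called higher in TA were Mrpl44, Mrps22, Mrpl27, Mrpl51 and Mrps26, all of them also called higher in gastrocnemius. Mrpl44 gave 0.55, 0.55, 0.28 and 0.28 in TA pairs 1 to 4. Every pair was above 0, and the mean of 0.42 ± 0.16 (SD, n = 4; limma, adjusted p = 0.0302) was the largest of any member in TA. Mrps22 gave 0.30, 0.45, 0.17 and 0.30, with a narrower spread than in gastrocnemius (0.31 ± 0.11, limma, adjusted p = 0.0474). Mrpl27 gave 0.55, 0.41, 0.27 and 0.13, pair 1 highest and pair 4 lowest. Its other probe stood at -0.20 in TA, so the 2 probes of Mrpl27 point opposite ways there, as do those of Mrps26 (0.24 and -0.11). Mrpl51 had a mean of 0.26 in both muscles. All 5 calls were lost without TA pair 1 or pair 2.

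Of the 10 members called lower in TA, 7 belong to the large subunit by symbol and 3 to the small. Mrpl12 encodes the protein of the flexible stalk that contacts the elongation factors. Its ratios in TA were -0.36, -0.097, -0.27 and -0.53. All 4 pairs lay below 0, with pair 4 lowest (mean -0.31 ± 0.18, SD, n = 4; limma, adjusted p = 0.062). In gastrocnemius the same probe gave -0.0022, -0.21, 0.25 and -0.17, on both sides of 0. Mrpl10, which holds the stalk to the ribosome, was below 0 on all 8 arrays. It was called lower in TA (-0.26 ± 0.17, limma, adjusted p = 0.0883) and its other probe was as well (-0.38, adjusted p = 0.0403). In gastrocnemius it just missed the threshold (-0.23 ± 0.067, limma, adjusted p = 0.101). Mrpl11, next to the base of the stalk, was near 0 in both muscles (0.041 and -0.0077). Without TA pair 1 or pair 3, neither Mrpl12 nor Mrpl10 was called, Mrpl10 was not without pair 2 and Mrpl12 was not without pair 4.

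Mrps18a had the smallest adjusted p among the members lower in TA, with ratios of -0.39, -0.22, -0.21 and -0.44. All 4 pairs lay below 0, pairs 1 and 4 lowest, and the mean was -0.31 ± 0.12 (SD, n = 4; limma, adjusted p = 0.0464). Mrpl28 and Mrpl9, both counterparts of bacterial large-subunit proteins, had -0.33 ± 0.14 and -0.31 ± 0.11 (limma, adjusted p = 0.0466 for both). Mrps27 encodes a small-subunit protein of the pentatricopeptide repeat type, which bind RNA. It gave -0.77, -0.29, -0.33 and -0.20, and pair 1 was much the lowest. Mrpl37 gave -0.64, -0.12, -0.48 and -0.29, and was spread about as widely. Mrps15 was the only member called lower in both muscles, at -0.38, -0.28, -0.41 and -0.11 in TA. Mrpl54 and Mrpl38 completed the 10, at -0.25 each. Without TA pair 1 none of the 10 was called, and without pair 2 only Mrpl12, Mrpl28 and Mrpl37 were.

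**Figure D2:**
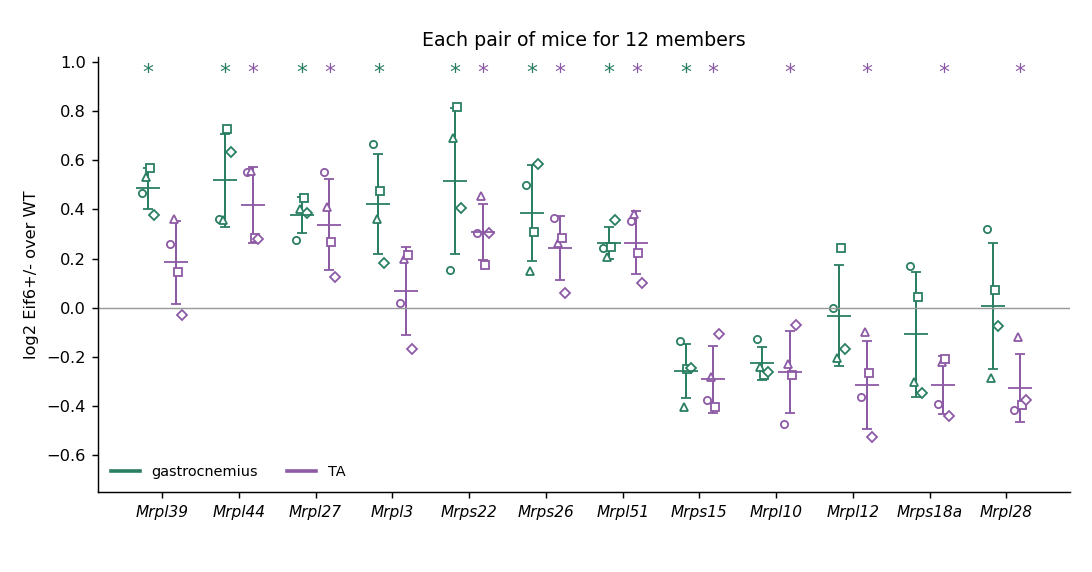
Log2 ratio of Eif6+/- over WT (vertical) for 12 members (horizontal) in gastrocnemius (green) and TA (purple); symbols are the pairs (circle 1, triangle 2, square 3, diamond 4), the bar is the mean with SD, and a star marks a gene called in that muscle. Mrpl44 lies above 0 on all 8 arrays and Mrps15 and Mrpl10 below 0 on all 8.

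Set side by side, the muscles called 6 members in common, 5 higher and 1 lower, and 0 members in opposite directions. That is 31.6% of the 19 called in gastrocnemius and 40% of the 15 called in TA, near the 40.4% and 39% of all genes called. Called higher in gastrocnemius and not called in TA were 13 members (16.9%, all genes 5.84%), and called lower in TA and not called in gastrocnemius were 9 (11.7%, all genes 5.22%). The ratio was above 0 on all 8 arrays in 13 members and below 0 on all 8 in 2, Mrps15 and Mrpl10, where 10% and 5.73% of all genes were so placed. For 74 of the 77 members (96.1%, all genes 52.3%) the mean ratio was larger in gastrocnemius than in TA, the exceptions being Mrpl43, Mrpl52 and Mrps10. A limma contrast over the 8 arrays asked whether a ratio differs from 1 muscle to the other. It was called for 0 of the 77 members, beside 0% of all 12194 genes tested in both muscles. At an unadjusted p under 0.05, 20 members (26%) differed, all 20 with the larger ratio in gastrocnemius, against 999 of all genes (8.19%), 574 of them with the larger ratio in gastrocnemius. The median difference of the members was 0.16 and that of all genes 0.0072. Mrpl15 had the smallest unadjusted p of the members, with a difference of 0.39 ± 0.10 (standard error). It was above 0 in all 4 gastrocnemius pairs and in 1 of 4 TA pairs, and did not pass the threshold (limma, adjusted p = 0.635). No member is thus shown by this test to respond differently in the muscles.

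**Figure D3:**
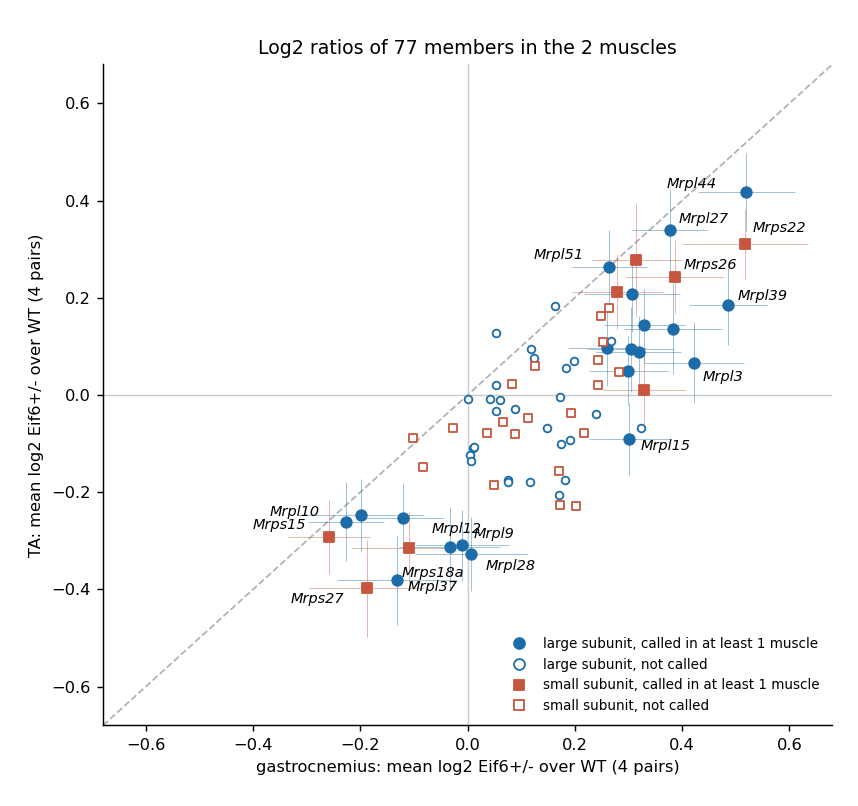
Mean log2 ratio of Eif6+/- over WT in gastrocnemius (horizontal) against TA (vertical) for 77 members, with standard errors for those called in at least 1 muscle; circles are large-subunit and squares small-subunit genes. All but 3 points lie below the dashed line of equal ratios, and the members called lower lie at or below 0 on both axes, apart from Mrpl28 just to the right of 0.

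The subunits were compared by their medians and by the shares called. In gastrocnemius the median log2 ratio was 0.16 for the 48 tested large-subunit members and 0.17 for the 29 small-subunit members. Over the large subunit the medians of pairs 1 to 4 were 0.20, 0.071, 0.27 and 0.12, and over the small subunit 0.15, 0.038, 0.26 and 0.086. By symbol the large subunit was thus slightly above the small one within each pair, but by structure it was below it on pair 3 (0.25 and 0.28). Of the large-subunit members 27.1% were called higher and 0% lower, and of the small-subunit members 17.2% and 3.45%. The difference of the medians over the genes' means was -0.017, of opposite sign to the difference within pairs, and it was -0.060 without pair 4 and -0.047 when Mrps18a and Mrps30 were counted with the large subunit and Mrps36 left out. In TA the medians were -0.020 for the large and -0.047 for the small subunit (0.011 and 0.030 with Agilent's processed signals), with 6.25% and 6.9% called higher and 14.6% and 10.3% called lower. The difference of 0.027 in TA became -0.019 with Agilent's processed signals and -0.022 with the mean over a gene's probes, so it has no settled sign. By pair in TA, the large subunit had 0.026, 0.080, -0.055 and -0.18 and the small subunit 0.0077, 0.035, -0.078 and -0.12. No test was made of this difference.

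For 21 members 2 probes were kept, and their agreement limits how single genes can be read. In gastrocnemius the probes had the same sign in 13 of 21 members, and in 6 of the 10 that were called by their brighter probe. In TA they had the same sign in 7 of 21, and in 1 of 3 that were called. Mrpl40 and Mrps36 in gastrocnemius and Mrpl10 in TA were called by both probes in the same direction (0.26 and 0.30, 0.33 and 0.26, and -0.26 and -0.38). With the mean over its probes Mrpl27 was called in neither muscle (0.19 in gastrocnemius and 0.068 in TA), nor was Mrps26 (0.17 and 0.066), and Mrpl4, Mrpl15 and Mrps18b were not called in gastrocnemius. Mrpl4 and Mrpl43 in TA were not called by the brighter probe (0.050 and 0.18), whereas the other probe was below 0 and past the threshold in both (-0.35 each, limma, adjusted p = 0.0419 and 0.0365).

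The arrays also compare the muscles with each other, through the WT channel alone. In WT mice 48 of the 77 members were called lower in log2 intensity in gastrocnemius than in TA, beside 13.2% of all 12194 genes, and 0 were called higher, beside 7.92% (limma; at an unadjusted p under 0.05, 54 were lower and 0 higher). Of the 48, 33 belonged to the large subunit and 15 to the small subunit. The median difference of the members was -0.30, against -0.033 for all genes. With Agilent's processed signals it was -0.56, with all genes at -0.17. Mrpl19 had the smallest adjusted p among the members. Its WT log2 intensity was 8.53, 8.39, 8.39 and 8.47 in gastrocnemius and 8.92, 8.97, 9.02 and 9.09 in TA. The groups did not overlap, and the difference was -0.56 ± 0.074 (standard error; limma, adjusted p = 0.0038). Mrpl46 had the largest difference, with 9.41, 9.52, 9.35 and 9.48 in gastrocnemius and 9.96 to 10.37 in TA (-0.66 ± 0.10, limma, adjusted p = 0.00614). Its groups did not overlap either. Mrpl15, named above for the contrast of the ratios, differed by -0.47, and Mrpl44 by -0.39. Leaving out 1 array moved the count of 48 to 29 without gastrocnemius pair 3, beside 904 of all 12194 genes. Without TA pair 4 it was 30, beside 971 of all genes.

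In the Eif6+/- channel the same comparison called 19 members lower in gastrocnemius, 13 large and 6 small, beside 10.2% of all genes, and 0 higher, beside 6.68% (0 at an unadjusted p under 0.05). The median difference was -0.12, against -0.026 for all genes. That count fell to 3 without TA pair 1 or pair 2, beside 555 and 629 of all 12194 genes. It fell to 4 without gastrocnemius pair 1 or pair 2, beside 654 and 673 of all genes. In these 4 fits the members' share called lower was no longer above that of all genes. Without pair 4 of gastrocnemius or of TA the count was 7, beside 726 and 889 of all genes. Without pair 3 of gastrocnemius or of TA it was 20 and 22, beside 1190 and 1314 of all genes. With Agilent's processed signals 63 members were called lower, as were 4218 of all 12194 genes. The median was then -0.35 for the members and -0.19 for all genes. The distance between the muscles in the members' intensity was thus smaller in Eif6+/- than in WT mice in median. The comparison of WT muscles, that of Eif6+/- muscles and the ratios on each array share their samples, so none of them is a check on another.

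**Figure D4:**
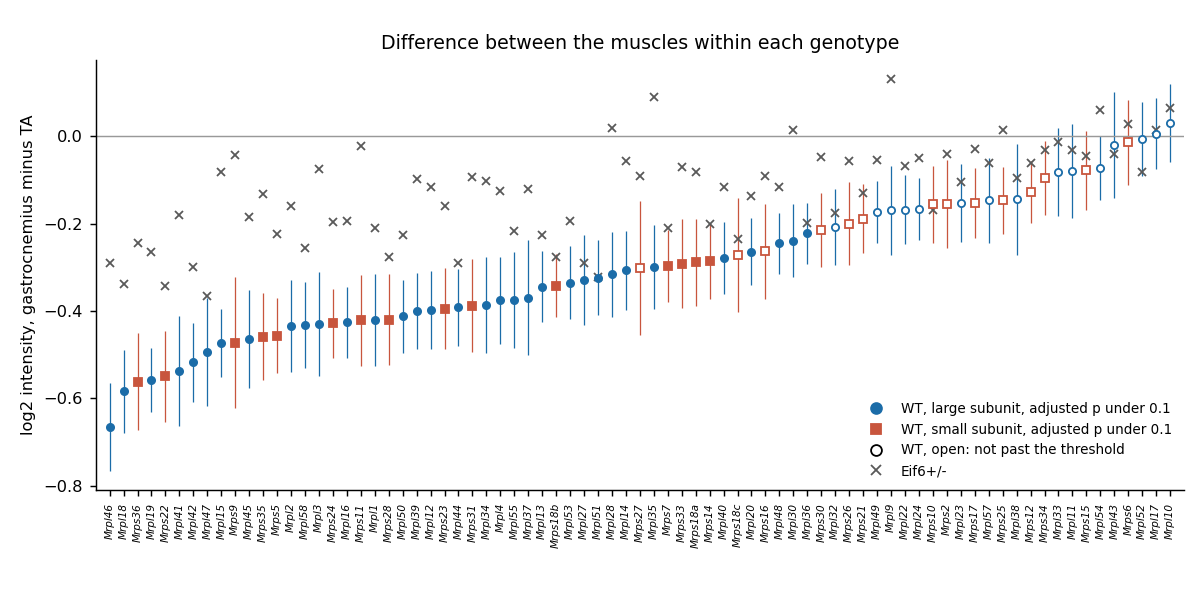
Difference in log2 intensity between gastrocnemius and TA (vertical) for 77 members (horizontal), ordered by the difference in WT mice; circles and squares with standard errors are WT, filled when past the threshold, and crosses are Eif6+/- mice. Most crosses lie between the WT value and 0.

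Other genes of mitochondrial gene expression were counted from lists of symbols. Of all genes tested, 9.9% were called higher and 5.56% lower in gastrocnemius, and 8.99% and 7.28% in TA. With normexp offset 0 these were 933 and 516 of 12601 genes, and 679 and 524 of 12371. With Agilent's processed signals they were 911 and 88, and 609 and 162. With loess alone they were 1296 and 608, and 1364 and 745. The deposited values gave 1217 and 730 in TA. The counts of all genes without each pair stand above. The 5 mitochondrial ribosomal proteins with other symbols (Dap3, Ptcd3, Aurkaip1, Chchd1 and Gadd45gip1) had 0 called in either muscle by limma, at medians of 0.11 in gastrocnemius and -0.097 in TA. Their signs are those of the members' medians. In TA this did not hold with Agilent's processed signals (-0.045, members 0.015) or without pair 4 (-0.076, members 0.011). At an unadjusted p under 0.05, 0 of the 5 differed in gastrocnemius and 1 was lower in TA, and without gastrocnemius pair 1 limma called 1 higher there. Of 30 tested genes of ribosome assembly and ribosomal RNA modification, 6 (20%) were called higher and 1 (3.33%) lower in gastrocnemius. In TA 2 (6.67%) were called higher and 5 (16.7%) lower, and 0 were called there without pair 1, pair 2 or pair 3. The TA counts were also 0 with normexp offset 0 and with Agilent's processed signals. The median was 0.11 in gastrocnemius (0.065 without pair 3, 0.20 with Agilent's processed signals) and -0.034 in TA (0.0044 with loess alone, -0.071 without pair 2). Mrm1, a methyltransferase for the large ribosomal RNA, had a ratio of 0.70 ± 0.19 in gastrocnemius (limma, adjusted p = 0.0285). Mpv17l2, an assembly factor of the inner membrane, was lower in both muscles (-0.49 and -0.30). Tfb1m, which methylates the small ribosomal RNA, was called higher in both (0.37 and 0.24). Of 17 translation factors, 8 (47.1%) were called higher and 0 lower in gastrocnemius, where the median was 0.27. In TA, where it was 0.017, 2 (11.8%) were called higher and 3 (17.6%) lower. The 8 became 2 with normexp offset 0, 4 with Agilent's processed signals and 4 without gastrocnemius pair 1 (1 lower) or pair 2. Without TA pair 1, 0 were called in TA, and without TA pair 2 the median there was -0.054. Lrpprc, which stabilises mitochondrial messenger RNA, gave 0.90, 0.59, 0.75 and 0.63 in gastrocnemius and 0.40, 0.43, 0.26 and 0.21 in TA. It was above 0 in every pair of both muscles and was called in both (limma, adjusted p = 0.0267 and 0.0412). Tufm, the mitochondrial elongation factor that brings transfer RNA to the ribosome, was lower in TA (-0.45 ± 0.14, limma, adjusted p = 0.0235). In gastrocnemius it was not called (-0.19 ± 0.25). The genes named from these lists were chosen after their values were seen. Without gastrocnemius pair 3 or pair 4 none of them was called there, as no gene was.

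Of 21 genes for mitochondrial aminoacyl-tRNA synthesis, 1 (4.76%), Pars2 at 0.40, was called higher in gastrocnemius, and 2 were without pair 1. In TA 1 (4.76%) was called higher and 3 (14.3%) lower, and 0 without pair 1 or pair 2. The share called higher was below that of all genes in both muscles. The gastrocnemius count was 4 with loess alone. The medians were 0.015 and -0.067, but 0.22 and -0.0025 with Agilent's processed signals, and in gastrocnemius -0.011 without pair 1. Of 12 genes of mitochondrial transcription and DNA replication, 4 (33.3%) were called higher in gastrocnemius. In TA 1 (8.33%) was called higher and 1 (8.33%) lower, near the shares of all genes, and 0 without pair 1 or pair 2. Their gastrocnemius median was 0.14, from 0.077 without pair 3 to 0.39 with Agilent's processed signals, and 2 were called without pair 2. Their TA median was 0.12 (0.049 without pair 2). The products of the mitochondrial ribosome work in the respiratory chain, together with subunits from nuclear genes. Of 83 tested nuclear genes for respiratory chain subunits, 34 (41%) were called higher in gastrocnemius and 0 lower (limma; 47 and 1 at an unadjusted p under 0.05), at a median of 0.26. The 34 became 15 with normexp offset 0 and 17 with Agilent's processed signals. Without pair 1 the count was 19, and without pair 3 or pair 4 it was 0, with 33 and 44 at an unadjusted p under 0.05. In TA 2 (2.41%) were called higher and 11 (13.3%) lower, at a median of -0.0058 that was above 0 with loess alone, with the deposited values and without pair 4. These became 6 higher and 12 lower with loess alone, 6 and 11 with the deposited values, 2 and 5 with normexp offset 0, 0 and 3 with Agilent's processed signals, and 7 and 9 without TA pair 4. Without TA pair 1 they were 0 and 0, without pair 2 they were 0 and 3, and without pair 3 they were 2 and 5. Of 86 cytosolic ribosomal proteins, 1 (1.16%) was called higher and 12 (14%) lower in gastrocnemius (0 and 3 with normexp offset 0). Their median there of -0.044 was 0.028 with Agilent's processed signals (0 called by limma, 0 higher and 1 lower at an unadjusted p under 0.05). In TA 16 (18.6%) were called higher and 2 (2.33%) lower, at a median of 0.084. Without gastrocnemius pair 1, 4 were higher and 5 lower at a median of -0.0031, and without pair 2, 0 were higher and 5 lower. In TA the counts became 2 and 0 with Agilent's processed signals, 8 and 0 with offset 0, 16 and 6 with loess alone (median 0.026) and 14 and 4 with the deposited values (median 0.031). The 16 became 4 without TA pair 2 and 10 without TA pair 3. In WT mice 64 of the 83 respiratory chain genes were lower in gastrocnemius than in TA (median -0.43), beside 13.2% of all genes. Without TA pair 4 there were 42, beside 971 of all 12194 genes. For the cytosolic ribosomal proteins 15 were higher in WT gastrocnemius (median 0.15), beside 7.92% of all genes. Without gastrocnemius pair 3 there were 4, beside 643 of all genes. With Agilent's processed signals 1 was higher and 4 lower, at a median of -0.14, beside 672 and 2476 of all genes. The respiratory chain list thus has the members' signs in gastrocnemius and in WT muscle, and medians further from 0 than theirs. Without gastrocnemius pair 3 or pair 4 no gene of any list was called in that muscle, and without TA pair 1 only 1 cytosolic ribosomal protein was called in TA.

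**Figure D5:**
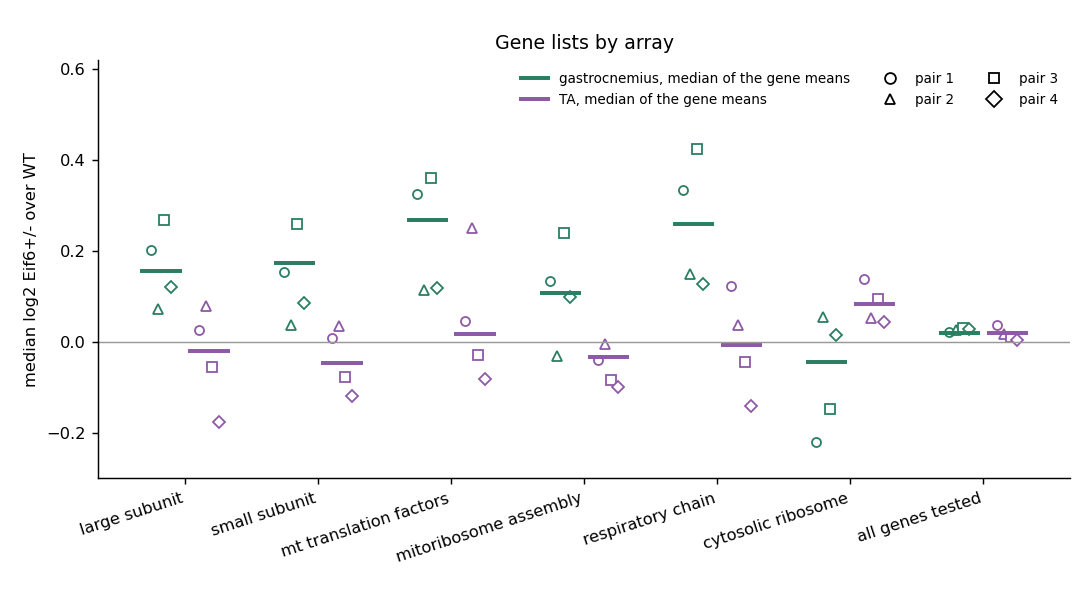
Log2 ratio of Eif6+/- over WT (vertical) for the members and for other gene lists (horizontal) in gastrocnemius and TA; thick bars are medians of the genes' means and points the median on each of the 4 arrays. The members, the translation factors and the respiratory chain lie above 0 in gastrocnemius and near 0 in TA.

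Mitochondrial content differs between fibre types and cell types, so marker lists are given beside these results. Of all genes, 9.9% were called higher and 5.56% lower in gastrocnemius, and 8.99% and 7.28% in TA. The summed intensity of 10 slow fibre markers (Myl3 brightest), as log2 of Eif6+/- over WT, was 2.89, -0.94, 0.14 and -0.17 on gastrocnemius pairs 1 to 4 and 0.047, -0.44, 0.060 and -1.32 on TA pairs 1 to 4. For Myh2, the myosin of IIA fibres, it was 3.92, 0.53, 1.41 and 0.63 in gastrocnemius and 1.44, -0.041, 0.35 and -1.55 in TA. The mice of a pair thus differed widely in these markers, above all in gastrocnemius pair 1 and TA pair 4. Pair 4 of TA was also the pair with the lowest median of the members in TA. Gastrocnemius pair 1 was not the pair with the highest in gastrocnemius (0.17, against 0.26 on pair 3). Of the 10 slow fibre markers 0 were called in gastrocnemius by limma and 4 were called lower in TA. Of 8 markers of IIB and IIX fibres (Pvalb brightest), 1 was called higher and 2 lower in each muscle, and the sums stayed between -0.10 and 0.22. The 7 skeletal muscle markers (Tnnt3 brightest in gastrocnemius, Acta1 in TA) had sums between -0.17 and 0.11, with 0 called higher and 3 lower in gastrocnemius and 1 higher and 2 lower in TA. In WT mice, in which the members were lower in gastrocnemius than in TA, 7 of 10 slow fibre markers were higher there (median 1.90), as were 5 of 6 fat cell markers (median 2.34) and 4 of 6 connective tissue markers (median 0.94). Of all genes 7.92% were called higher in WT gastrocnemius.

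The 6 connective tissue markers (Col1a2 brightest) had summed values of 0.019, 0.053, -1.36 and 0.33 in gastrocnemius and 0.26, -0.82, 2.13 and -0.20 in TA, and 0 were called in either muscle. Gastrocnemius pair 3, where they were lowest, was the pair with the highest median of the members in that muscle. TA pair 3, where they were highest, was not the pair with the lowest in TA (-0.059, against -0.15 on pair 4). Of 6 tested fat cell markers (Cfd brightest in gastrocnemius, Fabp4 in TA, Lep not tested), 2 were called lower in gastrocnemius, with sums of -0.46, -0.099, -0.41 and -1.37, and 3 higher in TA, with 0.024, -0.014, 0.69 and -0.19. Of 6 red blood cell markers tested in TA (Hba-a2 brightest), 4 were called lower, with sums of -0.21, -1.02, -0.47 and -0.017. In gastrocnemius 0 of 5 were (Slc4a1 not tested), with 0.39, -0.16, -0.36 and -0.051. Leukocyte markers (H2-Ab1 brightest; Cd68 and S100a8 untested in both muscles, Ptprc and S100a9 also in gastrocnemius) had 1 of 4 called lower in gastrocnemius and 1 of 6 in TA, with sums of -0.77, -0.26, -1.63 and -0.12 and of 0.18, -0.68, -0.25 and 0.032. Of 5 markers of myelinated nerve (Pmp22 brightest), 3 were called lower in TA, with sums of -0.16, -0.54, -0.088 and -0.47, and 0 in gastrocnemius, with -0.31, -0.24, -0.043 and 0.23. Of 4 endothelial markers (Kdr brightest), 1 was called lower in TA, where the sums lay between -0.23 and 0.0032, and 0 in gastrocnemius, where they lay between -0.32 and 0.094. The part of any of these cell and fibre types in the members' ratios was not tested.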

How the data were processed

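The authors deposited Agilent Feature Extraction 10.5.1.1 output for 8 two-colour arrays, with spot and background values as intensity, not normalized, and the scanner software's log10 ratio. They also deposited a table of log2 values, which was checked to hold Eif6+/- over WT after loess of uncorrected intensities (r at least 0.99996). Median signals (59305 probe spots, 55681 probes) were corrected with normexp (limma 3.58.1, R 4.3.3, offset 50), then normalized by loess within arrays and by quantiles over 16 channels. Outlier spots were left out and probe spots averaged. Kept probes stood well above background on every array of a muscle, in 1 or both channels (23792 in gastrocnemius, 23380 in TA, 22768 in both). Ratios were tested against 0 with lmFit and eBayes per muscle, with Benjamini-Hochberg adjustment over kept probes. The muscles were compared over 8 arrays, for the ratio and within each channel. A gene was read from its brightest probe (27235 of 28685 probes with a RefSeq accession matched a gene). The share of probes clear of background ran from 38.7% to 48.6% by array and channel, and the number of arrays limits the precision.

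The members and lists were chosen with earlier results of these data known. Genes named are Eif6, in each muscle the called members up to 15 by adjusted p, members called in both muscles, members called in the difference, and members with a role of their own. Others are named as exceptions or because they were singled out, after their values were seen. Lists were other mitochondrial ribosomal proteins, assembly, translation factors, aminoacyl-tRNA synthesis, transcription, cytosolic ribosomal proteins, respiratory chain, and markers of muscle, slow, IIB and IIX and IIA fibres, fat cells, red blood cells, leukocytes, connective tissue, nerve and endothelium. Alternatives were other normalizations, background corrections and filters, Agilent's processed signals, the deposited values, the mean over a gene's probes, SAM (the test the methods name for the arrays), a plain one-sample test, 1 fit for all arrays, a stricter threshold, each array left out, subunits by structure, the other channel, and pair number as a block.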

Additional observations from a re-analysis of the deposited data

Results flagged for a closer look

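In 84 groups of 4 arrays, each pair's value was compared with the other 3, and in 6 of them the highest or lowest lay far from the rest. About 1 in 20 groups is picked out this way by chance. In gastrocnemius, Mrpl9 had a log2 ratio of -0.26 on pair 2, with the other pairs between 0.056 and 0.10. Mrpl37 had 0.29 on pair 1, with the others between -0.30 and -0.23, so 3 pairs lay below 0 and 1 above it. Mrpl54 had 0.037 on pair 3, with the others between -0.18 and -0.16. In TA, Mrpl28 had -0.12 on pair 2, with the others between -0.41 and -0.38, and Mrpl54 had -0.11 on pair 2, with the others between -0.32 and -0.29. Mrpl41 had -0.61 on TA pair 4, with the others between -0.069 and 0.030. The median ratios of all members, of the large subunit and of the small subunit were among the groups examined, and none of them was picked out. No member was called for a difference between the muscles.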

How the results depend on the processing

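The median log2 ratio of the members moved by less than the spread between pairs under every alternative tried. With 1 array left out it ran from 0.12 to 0.19 in gastrocnemius and from -0.058 to 0.011 in TA. The widest other moves were to 0.25 in gastrocnemius and 0.015 in TA with Agilent's signals, and to 0.14 and -0.060 with the mean over a gene's probes. The count of members whose ratio differs between the muscles was 0 under each normalization, background correction and filter tried, with the deposited values, without each array and with pair number as a block. The count called higher in WT gastrocnemius was 0 in each alternative run for it. With 1 array left out, gastrocnemius had 0 to 11 members called higher and 0 to 1 lower, TA 0 to 7 higher and 0 to 7 lower, and WT gastrocnemius 29 to 46 lower than TA. The large minus small subunit median was then -0.060 to -0.024 in gastrocnemius and -0.0076 to 0.053 in TA. Fewer arrays mean fewer degrees of freedom.

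Members called higher in gastrocnemius (18) were 8 with normexp offset 0, 9 with Agilent's processed signals, 3 at an adjusted p under 0.05, 30 with SAM, 28 with all 8 arrays in 1 fit and 0 with a plain one-sample test after adjustment (24 unadjusted). The 1 called lower was 0 with loess only, offset 0, no background correction, Agilent's signals, the deposited values, an adjusted p under 0.05 and the plain test (3 unadjusted), and 2 without a filter, with SAM and with 1 fit. In TA the 5 called higher were 2 with offset 0 and at an adjusted p under 0.05, 3 with the deposited values and 0 with Agilent's signals and the plain test. The 10 called lower were 5 with offset 0, 4 at an adjusted p under 0.05 and 0 with Agilent's signals and the plain test, where 7 were higher and 11 lower unadjusted. The large minus small subunit median (-0.017 in gastrocnemius) was -0.050 with the mean over a gene's probes and -0.047 by structure. In TA (0.027) it was -0.019 with Agilent's signals and -0.022 with the mean over probes. The 48 members called lower in WT gastrocnemius were 19 in the Eif6+/- channel and 35 with pair number as a block. The labels do not say whether a pair number marks the same mice in both muscles (r of the ratios from -0.36 to 0.089 between arrays of the same number, over probes, which are not independent).

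Named genes were followed over the other normalizations, background corrections, filters, Agilent's signals, the deposited values, the mean over probes and each array left out. The plain test, SAM, the stricter threshold and 1 fit for all arrays are not in the counts below. Log2 ratios changed sign 27 times over the alternatives followed, some of them under several, and none of these ratios was called. With Agilent's signals these were Mrpl54 (0.037), Mrps12 (0.015), Mrps18a (0.038), Mrpl9 (0.057) and Mrpl12 (0.0080) in gastrocnemius and Mrpl11 (0.033) and Mrpl58 (0.048) in TA. With loess only they were Mrpl9 in gastrocnemius (0.0060) and Mrps36 in TA (-0.0089), with the deposited values Mrps36 in TA (-0.0094), and with the mean over probes Mrps2 in gastrocnemius (-0.0076) and Mrps36 (-0.0097) and Mrpl4 (-0.15) in TA. With 1 array left out, gastrocnemius values ran from -0.097 to 0.11 for Mrpl28, -0.048 to 0.075 for Mrpl9, -0.13 to 0.025 for Mrpl12, -0.014 to 0.11 for Mrpl11, -0.0054 to 0.14 for Mrps5, -0.036 to 0.092 for Mrps2 and -0.043 to 0.037 for Mrpl24. In TA they ran from -0.038 to 0.069 for Mrps36, -0.066 to 0.055 for Mrpl11 and -0.065 to 0.059 for Mrpl58. The 34 called values of named genes were Eif6 in both muscles and the called members other than Mrpl22 and Mrpl40. They lost their call 150 times over the same alternatives, 23 times under Agilent's signals, 17 under offset 0 and 7 with the mean over probes. All 18 in gastrocnemius lost it without pair 3 and without pair 4. A call was gained 3 times. The cause was not tested. Agilent's signals moved the median of all genes to 0.12 in gastrocnemius and 0.090 in TA. Signal over background limits the dim probes, and Mrpl21 has no value for that reason.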
